A study of Mus musculus with 6 samples.

Results

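Gap junction connexins are the proteins that form channels between neighbouring cells. The 7 genes described here, Gja1, Gja4, Gja5, Gjb1, Gjb2, Gjb5 and Gjc1, were taken by symbol from a deposited table of 38720 genes, with earlier results of these data known. A connexin spans the membrane and assembles with others into a hemichannel, which docks with a hemichannel of the adjacent cell to give a pore for ions and small molecules. Connexin genes fall into sequence classes, of which the alpha, beta and gamma classes are represented here, and different tissues express different sets. In the stomach, connexins are known from the glandular epithelium, the muscle layers and the vessels.

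The samples were Cldn18 knockout mice (Cldn18-/-) and wild-type mice (Cldn18+/+), both of strain B6:129S5, with 3 libraries in each group. Cldn18 encodes claudin 18, a tight junction protein of gastric epithelium. For both genotypes, tissue from the neck of corpus glands had been cut by laser capture from unfixed frozen sections before its RNA was sequenced. The sample labels put the mice at 7 weeks after birth and the series text at 7 days, so these sources leave the age unsettled. Nothing in the labels ties the libraries of a group to separate animals, so the spread that p-values measure here may be technical spread between samples. No source used here gives the deleted part of Cldn18 or the origin of the allele.

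The libraries held 37673283 to 52842813 reads on genes, of which the locus Gm26924 took 38.6% to 45.4%. Cldn18 itself averaged 15217 ± 1952 normalized counts in knockout libraries and 24983 ± 4883 in wild-type libraries (SD, n = 3 each), a log2 difference of -0.71 ± 0.20 (SE; limma adjusted p = 0.0134), and this call was lost without knockout replicate 1 (adjusted p = 0.0896). Its reads are summed over the whole gene and so test the labels in direction alone. Neck cell genes were read in each library: the summed level of 4 mucous neck markers, led by Tff2, was 88208 to 184553 normalized counts in knockout libraries and 76429 to 98888 in wild-type libraries. Of these 4 genes 2 were called higher and 1 lower in the knockout. Wild-type library 2, and less so wild-type library 3, stood apart from wild-type library 1 in stratified squamous genes, whose summed level over 10 genes was 589 to 755 in knockout libraries and 733, 9709 and 3481 in wild-type replicates 1, 2 and 3. Ivl, the gene of involucrin, made up a large part of the knockout sum and had 282 to 405 normalized counts in knockout libraries and 0, 0 and 1.94 in wild-type replicates 1, 2 and 3. Krt5, Krt14, Krt15 and Krt17 were lower in the knockout, with wild-type library 1 above all knockout libraries in each. The 6 members tested are therefore also given without wild-type libraries 2 and 3, where wild-type library 1 stands alone and its spread is taken to equal that of the knockout.

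The promoters of the 3 members that were higher in the knockout are printed because all 3 differed in the same direction between the groups. RefSeq (GRCm38.p6, the mm10 assembly) promoters were matched for 6 of the 7 members, with 4 start sites for Gjb1, of which the first and the last are shown. Each window runs from 250 bases before to 50 bases after the annotated start. Capitals mark matches to 3 motifs, each searched on both strands. The GC box was spelled GGGCGG. The motif for a box of the TATA kind was spelled TATAAA. An AP-1 site was spelled TGANTCA. No match overlapped a match of another motif in these windows. The windows are chr10:56377050-56377349 on the plus strand for Gja1, chr14:57104653-57104952 on the minus strand for Gjb2, and chrX:101376126-101376425 and chrX:101383482-101383781 on the plus strand for Gjb1.
Gja1: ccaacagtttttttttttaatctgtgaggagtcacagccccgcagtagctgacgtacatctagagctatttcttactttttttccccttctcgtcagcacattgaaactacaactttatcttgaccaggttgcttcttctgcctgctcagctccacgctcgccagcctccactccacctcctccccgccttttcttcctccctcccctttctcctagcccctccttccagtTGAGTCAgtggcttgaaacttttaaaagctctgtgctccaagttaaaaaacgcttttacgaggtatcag
Gjb2: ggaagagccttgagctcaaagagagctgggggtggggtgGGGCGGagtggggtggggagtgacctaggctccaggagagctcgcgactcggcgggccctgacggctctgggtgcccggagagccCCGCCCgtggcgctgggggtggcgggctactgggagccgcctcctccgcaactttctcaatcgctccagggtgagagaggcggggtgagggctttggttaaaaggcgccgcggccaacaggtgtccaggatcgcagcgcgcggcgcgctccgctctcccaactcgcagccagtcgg
Gjb1 first start site: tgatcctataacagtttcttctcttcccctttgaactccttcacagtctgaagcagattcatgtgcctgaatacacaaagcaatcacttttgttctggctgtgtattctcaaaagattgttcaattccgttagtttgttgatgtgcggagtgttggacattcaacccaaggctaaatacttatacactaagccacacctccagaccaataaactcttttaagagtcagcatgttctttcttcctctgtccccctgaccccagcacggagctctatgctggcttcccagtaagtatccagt
Gjb1 last start site: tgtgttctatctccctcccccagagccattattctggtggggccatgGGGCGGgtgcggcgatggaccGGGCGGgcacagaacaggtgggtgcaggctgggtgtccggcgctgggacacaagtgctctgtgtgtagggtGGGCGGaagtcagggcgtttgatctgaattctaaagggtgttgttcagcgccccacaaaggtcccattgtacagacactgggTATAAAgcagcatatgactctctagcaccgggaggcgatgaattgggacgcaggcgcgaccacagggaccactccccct

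The Gja1 window held an AP-1 site, with its first base at position -19 counted from the annotated start as 0. Among 32851 promoter windows of the same length, 7.81% held this motif. The Gjb2 window held 2 GC boxes, at positions -211 and -126, and the last Gjb1 window held 3, at -203, -182 and -111, together with a TATA box at -29. GC boxes were found in 35.7% of all windows and TATA boxes in 13.6%. Among the members not called higher, the windows of Gja4 and Gja5 each held a GC box, at -79 and -17. The Gjb5 window held a TATA box match at -243. The first Gjb1 window held none of the 3 motifs, nor did the windows of the Gjb1 start sites not shown. G and C made up 47.7% of the Gja1 window, 70.0% of the Gjb2 window, and 43.3% and 60.0% of the first and last Gjb1 windows, against a median of 52.7% over all windows. These are matches of letters, and which start site the reads of Gjb1 came from was not analysed here.

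Gjb1, Gja1 and Gjb2 were higher and Gjc1 was lower in Cldn18 knockout libraries, while Gja4 and Gja5 were not called and Gjb5 was too low to judge. The test was limma on log2(normalized count + 1) over 17432 genes with at least 10 normalized counts in at least 3 of the 6 libraries, with a call at an adjusted p under 0.05. It called 23.3% of all genes higher and 21.5% lower. Of the 7 members 6 passed this filter, and 3 of these were called higher and 1 lower. The libraries of the groups did not overlap for 4 of the 6, against 55.2% of all genes tested. The median log2 difference of these 6 genes was 0.47, and that of all genes tested was -0.015.

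**Figure D1:**
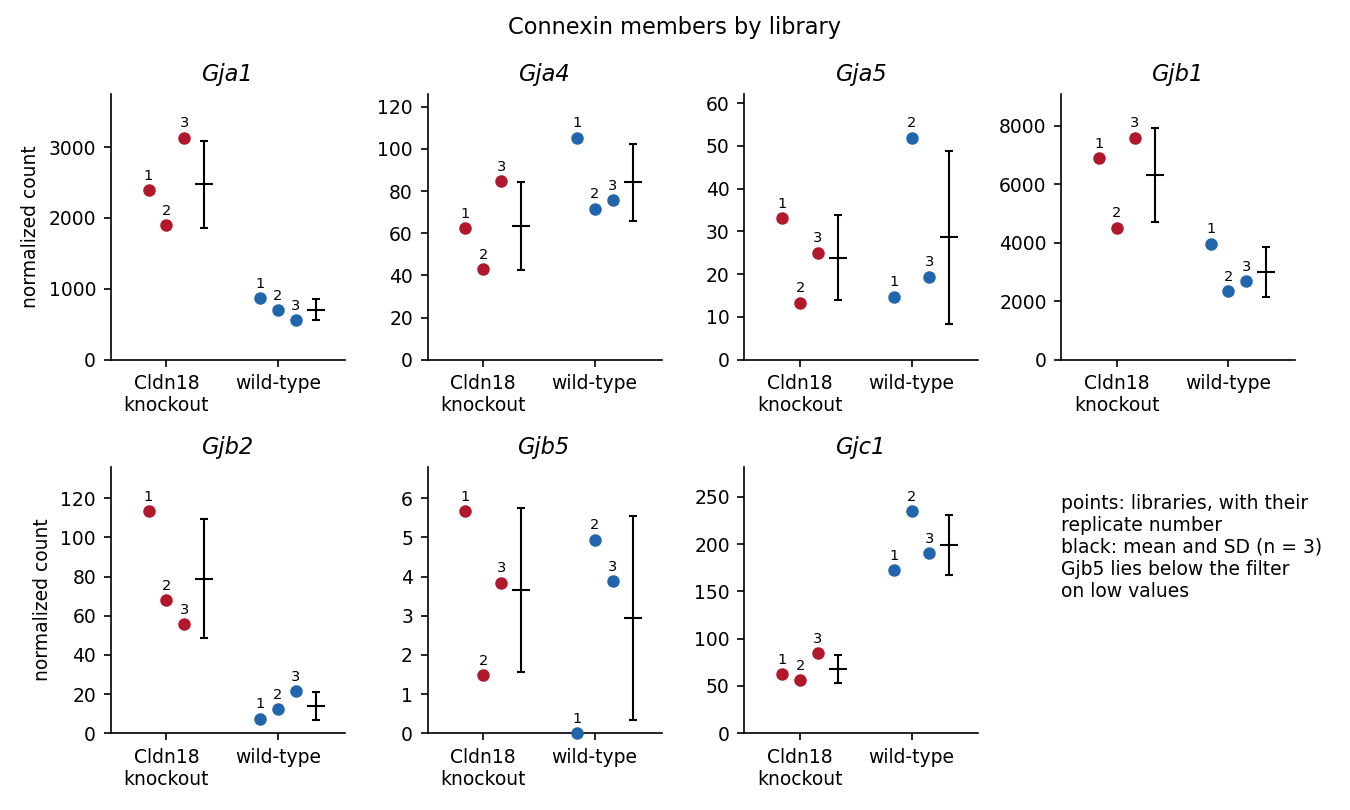
Normalized count of each connexin member (vertical axes, starting at 0) in the 3 Cldn18 knockout libraries (red) and the 3 wild-type libraries (blue), with replicate numbers, and the mean with SD in black. The knockout points lie above all wild-type points for Gja1, Gjb1 and Gjb2, below them for Gjc1, and among them for Gja4, Gja5 and Gjb5.

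Gjb1 encodes connexin 32, a channel of hepatocytes, exocrine glands and the myelinating cells of nerves, and was the most abundant member. Gjb1 lies on chromosome X, 101376378 to 101385629 on the plus strand (ENSMUSG00000047797.14, mm10). It stood at 6880, 4515 and 7581 normalized counts in knockout replicates 1, 2 and 3, and at 3966, 2331 and 2681 in wild-type replicates 1, 2 and 3. All knockout values were above all wild-type values, and the narrowest gap was between knockout replicate 2 and wild-type replicate 1. The log2 difference was 1.08 ± 0.23 (SE; limma adjusted p = 0.00363), a 2.12-fold higher level with a 95% interval of 1.48 to 3.03. The call was lost without wild-type libraries 2 and 3, at a log2 difference of 0.64 (adjusted p = 0.113). With any single library left out the adjusted p was at most 0.0229.

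Gjb1 was higher in the knockout, while the summed levels of the chief, parietal and pit cell lists were lower in the same libraries. All 6 chief cell markers were lower, and their summed level was 39928 to 74333 normalized counts in knockout libraries and 1815244 to 3011629 in wild-type libraries. The parietal cell markers were lower in 7 of 8 cases, with sums of 10500 to 18422 in knockout libraries and 408374 to 530863 in wild-type libraries. The pit cell markers were lower in 3 of 5 cases, with sums of 332164 to 577647 in knockout libraries and 882140 to 1496213 in wild-type libraries. For each 1000 counts of the 4 mucous neck markers, Gjb1 had 37.3, 32.0 and 85.9 counts in knockout replicates 1, 2 and 3 and 40.1, 28.6 and 35.1 in wild-type replicates 1, 2 and 3. On that scale the groups overlapped, but Tff2 alone made up 62.2% of the summed level of that list. Its genes also differed in direction: Muc6 was lower, Gkn3 and Dmbt1 were higher and Tff2 was not called. Hepatocytes also use Gjb1 and Gjb2, and the summed level of 4 hepatocyte markers, led by Apoa1, was 918 to 1404 normalized counts in knockout libraries and 40456 to 59509 in wild-type libraries. Of these 4 markers Apoa1, which was 95.1% of the sum, and Ttr were lower, Serpina1a was too low to test, and the log2 difference of Alb, 1.01, missed the threshold (limma adjusted p = 0.16). The part of these cell types in the Gjb1 result was not tested, and in bulk samples fewer cells of a type and less RNA per cell cannot be told apart.

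Gja1 encodes connexin 43, a widely expressed channel of smooth muscle, fibroblasts and many epithelia whose tail binds the scaffold ZO-1. Gja1 lies on chromosome 10, 56377330 to 56402513 on the plus strand (ENSMUSG00000050953.10, mm10). It had 2389, 1899 and 3129 normalized counts in knockout replicates 1, 2 and 3, and 865, 695 and 560 in wild-type replicates 1, 2 and 3. The lowest knockout library was above the highest wild-type library by a wide margin. The log2 difference was 1.80 ± 0.21 (SE; limma adjusted p = 8.43e-05), a 3.48-fold higher level with a 95% interval of 2.51 to 4.81. Without wild-type libraries 2 and 3 it was 1.48 (adjusted p = 0.00411).

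The stromal lists differed in direction beside the higher Gja1. Of 9 smooth muscle and pericyte markers none was higher by limma and 4 were lower, with sums of 10257 to 12672 normalized counts in knockout libraries and 12819 to 18650 in wild-type libraries. For each 1000 counts of that list Gja1 had 233, 174 and 247 counts in knockout replicates 1, 2 and 3 and 46.4, 40.5 and 43.7 in wild-type replicates 1, 2 and 3, so the groups stayed apart on this scale. Of 6 fibroblast markers 3 were higher and none was lower, with a median log2 difference of 0.68. Pdgfra, a receptor gene of fibroblasts, was higher by a log2 difference of 1.79, and Dcn and Lum were also higher. Col1a1, Col1a2 and Col3a1 were not called, at log2 differences of 0.35, 0.13 and -0.16. The fibroblast list had sums of 26367 to 47556 in knockout libraries and 21996 to 36833 in wild-type libraries. For each 1000 counts of the fibroblast list Gja1 had 64.1 to 90.6 counts in knockout libraries and 23.5 to 26.4 in wild-type libraries. Macrophage markers were higher in 2 of 4 cases, with sums of 2488 to 5269 in knockout libraries and 1171 to 1847 in wild-type libraries. The part of smooth muscle cells, fibroblasts and macrophages in the Gja1 result was not tested.

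Gjb2 encodes connexin 26, a partner of connexin 32 in mixed channels of the liver and a gene of inner ear supporting cells, and had the largest log2 difference of the 6 members tested. Gjb2 lies on chromosome 14, 57098600 to 57104702 on the minus strand (ENSMUSG00000046352.7, mm10). It had 113, 68.0 and 55.7 normalized counts in knockout replicates 1, 2 and 3, and 7.34, 12.3 and 21.4 in wild-type replicates 1, 2 and 3. These rest on 270 reads in the knockout libraries and 38 reads in the wild-type libraries together. Read counts were 120, 92 and 58 in knockout replicates 1, 2 and 3 and 6, 10 and 22 in wild-type replicates 1, 2 and 3. All of them were even, and low counts were mostly even in each library, so these reads were not independent of each other. All knockout values were above all wild-type values, and the spread was wide in both groups, with coefficients of variation of 38.4% in the knockout and 51.9% in wild-type. The log2 difference was 2.50 ± 0.51 (SE; limma adjusted p = 0.00257), a 5.64-fold higher level with a 95% interval of 2.58 to 12.3. Without wild-type libraries 2 and 3 the log2 difference of Gjb2 was 3.20 (adjusted p = 0.00404). Gjb2 passed the filter on low values through its knockout libraries and 2 of the 3 wild-type libraries.

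Gjc1 encodes connexin 45, a channel of smooth muscle and of the cardiac conduction system, and was the only member lower in the knockout by limma. Gjc1 lies on chromosome 11, 102799579 to 102819700 on the minus strand (ENSMUSG00000034520.14, mm10). It had 62.3, 56.1 and 84.6 normalized counts in knockout replicates 1, 2 and 3, and 173, 235 and 190 in wild-type replicates 1, 2 and 3. The highest knockout library was below the lowest wild-type library. The log2 difference was -1.55 ± 0.28 (SE; limma adjusted p = 0.00124). The fitted knockout level was 0.341 of wild-type, with a 95% interval of 0.222 to 0.523. Without wild-type libraries 2 and 3 the log2 difference of Gjc1 was -1.36 (adjusted p = 0.033). Beside the smooth muscle and pericyte sums given above, Gjc1 had 5.13 to 6.67 counts for each 1000 counts of that list in knockout libraries and 9.25 to 14.8 in wild-type libraries. Among the 3 markers of interstitial cells of Cajal, the pacemaker cells of gut muscle, Kit was lower, Ano1 was higher and Etv1 was not called. Kit had 315, 285 and 210 normalized counts in knockout replicates 1, 2 and 3 and 2153, 1532 and 1540 in wild-type replicates 1, 2 and 3. Ano1, which was 76.9% of the summed level of these markers, averaged 5330 in knockout libraries and 1887 in wild-type libraries. Etv1 averaged 81.3 and 78.4. The part of these cells in the Gjc1 result was not tested.

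**Figure D2:**
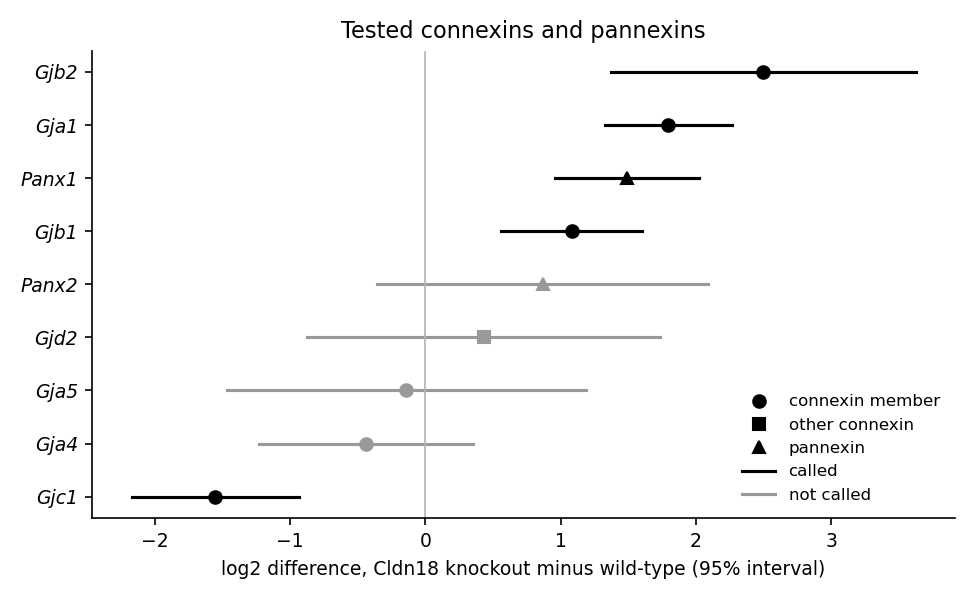
Log2 difference, Cldn18 knockout minus wild-type, with its 95% interval from limma (horizontal axis) for 9 connexins and pannexins that passed the filter; black marks genes called at an adjusted p under 0.05 and grey those not called. Gjb2, Gja1, Panx1 and Gjb1 lie to the right of 0 and Gjc1 to the left, and the intervals of the other 4 genes cross 0.

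Gja4 and Gja5 encode connexins 37 and 40, the channels of arterial endothelium, and neither was called. Gja4 lies on chromosome 4, 127311421 to 127314039 on the minus strand (ENSMUSG00000050234.7, mm10). It had 62.3, 42.8 and 84.6 normalized counts in knockout replicates 1, 2 and 3 and 105, 71.6 and 75.7 in wild-type replicates 1, 2 and 3. The groups overlapped, with knockout replicate 3 above 2 of the wild-type libraries. The log2 difference was -0.44 ± 0.36 (SE; limma adjusted p = 0.346), and its 95% interval runs from 0.427 to 1.27 times the wild-type level. Without wild-type libraries 2 and 3 the log2 difference of Gja4 was -0.78 (adjusted p = 0.246).

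Gja5 lies on chromosome 3, 96904693 to 97077416 on the plus strand (ENSMUSG00000057123.14, mm10). It had 33.1, 13.3 and 24.99 normalized counts in knockout replicates 1, 2 and 3 and 14.7, 51.9 and 19.4 in wild-type replicates 1, 2 and 3. Wild-type library 2 held the highest value, and the knockout libraries lay on both sides of the other wild-type libraries. The log2 difference was -0.14 ± 0.60 (SE; limma adjusted p = 0.869), with a 95% interval of 0.362 to 2.27 of the wild-type level, and its sign turned without wild-type replicate 2 (log2 difference 0.38, adjusted p = 0.653) and without wild-type libraries 2 and 3 (0.57, adjusted p = 0.573). Its annotated locus overlaps Gpr89, 9230114J08Rik and 4930573H18Rik on the opposite strand. The counting is not stated to use strand, so reads of overlapping exons cannot be told apart.

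Most endothelial markers were lower, while Gja4 and Gja5 were not called. Of 9 endothelial markers tested 8 were lower and none was higher by limma, with sums over 10 genes of 3017 to 4263 normalized counts in knockout libraries and 7087 to 11013 in wild-type libraries. For each 1000 endothelial counts Gja4 had 20.7, 13.6 and 19.8 counts in knockout replicates 1, 2 and 3 and 9.56, 9.12 and 10.7 in wild-type replicates 1, 2 and 3. All knockout values of this ratio were above all wild-type values, and the ratio of the group means was 1.84. For Gja5 the same scale gave 11.0, 4.21 and 5.86 in knockout replicates 1, 2 and 3 and 1.33, 6.60 and 2.74 in wild-type replicates 1, 2 and 3, with overlapping groups. Among 4 genes known from arterial endothelium, Hey1 was lower, Efnb2 was higher, and Sox17 and Bmx were not called. Efnb2 alone made up 94.2% of the summed level of these 4 genes. These ratios are descriptions with no test.

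Gjb5 encodes connexin 31.1, a channel of stratified epithelia and of the placenta, and was too low to judge. Gjb5 lies on chromosome 4, 127354809 to 127358181 on the minus strand (ENSMUSG00000042357.2, mm10). It had 6, 2 and 4 reads in knockout replicates 1, 2 and 3 and 0, 4 and 4 reads in wild-type replicates 1, 2 and 3, or 5.67, 1.48 and 3.84 normalized counts in the knockout and 0, 4.94 and 3.88 in wild-type. The 0 in wild-type replicate 1 allows up to 3 reads, or 3.67 normalized counts. Over all reads the ratio of knockout to wild-type was 1.15, with an exact 95% counting interval of 0.434 to 3.25. Counts of 1 to 20 reads were even in 63.2% to 65.0% of cases per library, so reads were not independent of each other, and this interval, which covers counting error only, is too narrow.

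Levels can be compared between the connexins only per length of exon. Gjb1 stood highest on this scale in both groups, at 3705 ± 941 normalized counts per kilobase in knockout libraries and 1753 ± 504 in wild-type libraries (SD, n = 3 each). Gja1 followed, at 241 ± 60.4 normalized counts per kilobase in knockout libraries and 68.9 ± 14.9 in wild-type libraries. In the knockout the order of the members went on with Gja4 (37.5 ± 12.4), Gjb2 (32.8 ± 12.6), Gjc1 (13.5 ± 2.99), Gja5 (4.14 ± 1.73) and Gjb5, and in wild-type with Gja4 (49.98 ± 10.9), Gjc1 (39.8 ± 6.39), Gjb2 (5.69 ± 2.95), Gja5 (4.99 ± 3.52) and Gjb5 (SD, n = 3, normalized counts per kilobase). Gjb1 was clear of Gja1 in each library of both groups. Gja4 and Gjb2 overlapped in the knockout. In wild-type Gja1 overlapped Gja4, Gja4 overlapped Gjc1, and Gjb2 overlapped Gja5. With the longest transcript as the length, Gjc1 (58.4 ± 9.36) stood above Gja4 (49.98 ± 10.9) in wild-type, and Gja1, at 144 to 223 normalized counts per kilobase, lay clear of Gja4.

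Summed over the 16 connexins reported here, the level was 4392, 2916 and 4861 normalized counts per kilobase in knockout replicates 1, 2 and 3 and 2531, 1583 and 1781 in wild-type replicates 1, 2 and 3. Gjb1 made up 91.3% ± 0.54 of this sum in knockout libraries and 88.7% ± 2.81 in wild-type libraries (SD, n = 3 each). Gja1 made up 5.98% ± 0.58 in the knockout and 3.56% ± 0.64 in wild-type, and these shares did not overlap between the groups. The Gja1 share depends on the length used, because the union of its annotated exons is 10257 bases long. With the longest transcript instead it was 13.5% ± 1.22 in the knockout and 8.24% ± 1.37 in wild-type. Gjc1 made up 0.339% ± 0.051 in the knockout and 2.15% ± 0.80 in wild-type, and Gja4 made up 0.916% ± 0.10 in the knockout and 2.56% ± 0.11 in wild-type. These shares also depend on the level of Gjb1, which made up most of the sum and was higher in the knockout. The level of Gja4 itself was not called. The ratio of Gjb1 to Gja1 per kilobase was 17.3, 14.3 and 14.6 in knockout replicates 1, 2 and 3 and 27.5, 20.2 and 28.8 in wild-type replicates 1, 2 and 3, so Gja1 gained on Gjb1 in each knockout library.

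**Figure D3:**
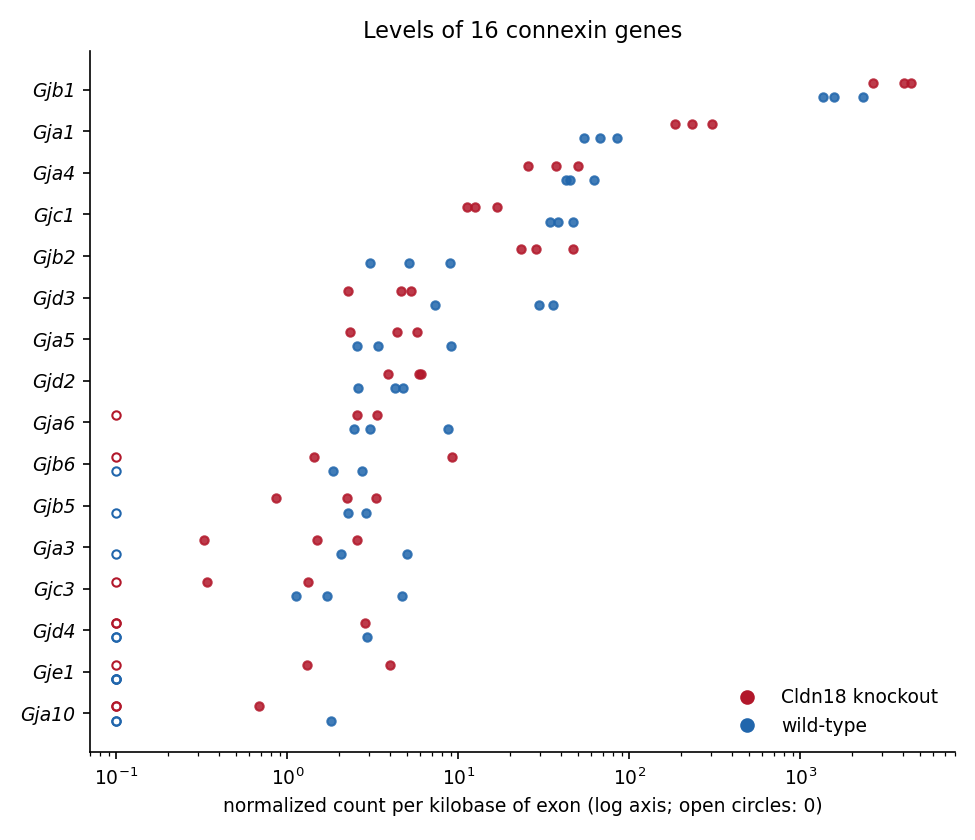
Normalized count per kilobase of exon (horizontal log axis) of 16 connexin genes in the 3 Cldn18 knockout libraries (red) and the 3 wild-type libraries (blue); open circles at the left edge are values of 0. Gjb1 lies above 1000 in each library, Gja1 lies next, and 8 genes were at 0 in some library.

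Of the other connexins of the mouse, 9 are reported, and their normalized counts were low. Only Gjd2, which encodes the neuronal connexin 36, passed the filter. Gjd2 had 15.1 ± 3.51 normalized counts in knockout libraries and 11.1 ± 3.25 in wild-type libraries (SD, n = 3 each) and was not called (log2 difference 0.43 ± 0.59 SE, limma adjusted p = 0.586). The groups overlapped. Beside this neural connexin, 4 of 5 glia and neuron markers were lower and Elavl4 was not called. Their sums were 121 to 186 normalized counts in knockout libraries and 413, 3733 and 1428 in wild-type replicates 1, 2 and 3. Tubb3 alone made up 84.8% of the summed level, with 264, 3413 and 1199 in wild-type replicates 1, 2 and 3. The part of neural cells was not tested.

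Among the 8 too low to test, Gjd3 alone had normalized counts that did not overlap between the groups. Gjd3, which encodes connexin 30.2, had at most 4.43 normalized counts in knockout libraries and at least 6.12 in wild-type libraries. Its reads were 2, 6 and 4 in knockout replicates 1, 2 and 3. In wild-type replicates 1, 2 and 3 they were 5, 20 and 31, so the reads did overlap. Gjd3 was not called without the filter (limma adjusted p = 0.119), and it was singled out after its values were seen. Per kilobase of exon it averaged 24.3 ± 15.0 normalized counts in wild-type libraries and 4.05 ± 1.59 in knockout libraries (SD). Its wild-type mean on this scale was above those of the members Gjb2 (5.69) and Gja5 (4.99), with overlapping libraries. Gjb6, which encodes connexin 30, had 26 of its 30 knockout reads in knockout replicate 1. Gja3, Gja6, Gja10, Gjc3, Gjd4 and Gje1 had at most 20.4 normalized counts in any library.

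Several members have connexin neighbours on the chromosome. Gja4 and Gjb5 lie on the minus strand of chromosome 4, between 127311421 and 127358181 (mm10), and of these Gja4 alone was tested and was not called. Gjb2 lies on chromosome 14 between Gja3 and Gjb6, both of which were below the filter.

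Pannexins form single-membrane channels with a fold like that of connexins but do not build gap junctions. Panx1, which encodes a channel that releases ATP, had 664, 674 and 739 normalized counts in knockout replicates 1, 2 and 3 and 338, 169 and 257 in wild-type replicates 1, 2 and 3. All knockout values were above all wild-type values, with a log2 difference of 1.49 ± 0.24 (SE; limma adjusted p = 0.000651). Panx2 was not called (log2 difference 0.87 ± 0.55 SE, limma adjusted p = 0.229), with 36.8, 33.98 and 61.5 normalized counts in knockout replicates 1, 2 and 3 and 15.9, 50.6 and 14.6 in wild-type replicates 1, 2 and 3. It was called without wild-type replicate 2 (log2 difference 1.43, adjusted p = 0.0433). Panx3 was below the filter.

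Of 21 genes whose proteins bind, transport, modify or degrade connexins, 7 were higher, 3 lower and 11 not called, with a median log2 difference of 0.098. Over all genes tested, 23.3% were called higher and 21.5% lower, with a median log2 difference of -0.015. The list was not tested as a set. The scaffold genes Tjp1 and Tjp3, which encode ZO proteins, rose by 0.84 ± 0.14 and 1.09 ± 0.18 on the log2 scale (SE). Prkca, a kinase of the connexin 43 tail, rose by 1.53 ± 0.16, and Mapk7, another kinase, rose by 0.55 ± 0.17 (log2 difference ± SE), a call lost in 9 of 21 alternatives (limma adjusted p = 0.025, and 0.0915 without knockout replicate 1). Nedd4, a ubiquitin ligase of connexin 43, rose by 0.68 ± 0.17, Cdh1, which encodes E-cadherin, by 1.04 ± 0.22, and the caveolin gene Cav2 by 1.27 ± 0.16 (log2 difference ± SE). The calls of Nedd4 and Cdh1 were lost without wild-type libraries 2 and 3 (adjusted p = 0.139 and 0.0655).

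The lower genes of that list were Dbn1, Cav1 and Wwp1. Dbn1, which encodes the actin-binding protein drebrin, had 279 ± 50.4 normalized counts in knockout libraries and 2867 ± 883 in wild-type libraries (SD, n = 3 each; log2 difference -3.33 ± 0.22 SE, limma adjusted p = 1.95e-06). Cav1, which encodes the caveolin abundant in endothelium, had 205 ± 33.4 in knockout libraries and 830 ± 232 in wild-type libraries (log2 difference -1.98 ± 0.23 SE), beside the lower endothelial sums given above. Wwp1, another ubiquitin ligase, had a log2 difference of -0.76 ± 0.14 (SE). Cdh2, Nov, Cnst, Mapre1, Src, Csnk1d, Prkce, Smurf2, Ubqln4, Tsg101 and Rab11a were not called.

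**Figure D4:**
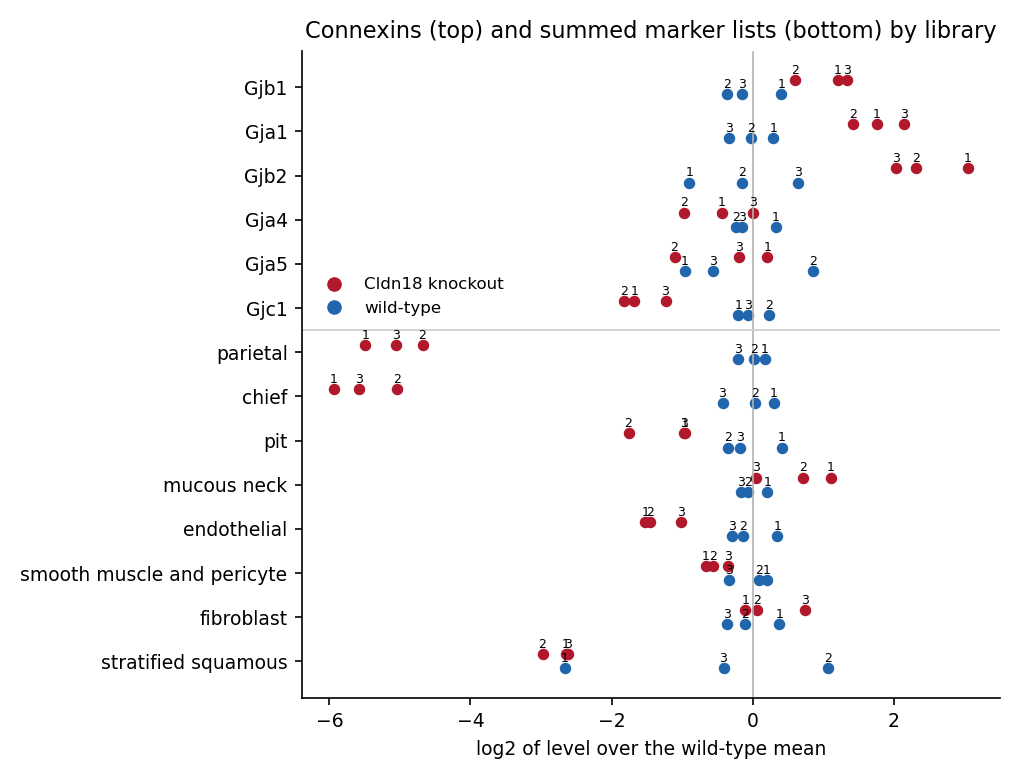
Log2 of the level over the wild-type mean (horizontal axis) in the 3 Cldn18 knockout libraries (red) and the 3 wild-type libraries (blue), with replicate numbers, for 6 connexin members (above the line) and for the summed level of 8 marker lists (below it). Gjb1, Gja1 and Gjb2 lie to the right of the wild-type libraries while the parietal, chief, pit and endothelial sums lie to the left, and the stratified squamous sums of wild-type libraries 2 and 3 lie far to the right of the other libraries.

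The members were also set beside the other genes tested by the root mean square difference of their log2 values over the 6 libraries, after centring each gene on its own mean, with 14725 genes searched. Closest to Gja1 were Tnfrsf1b (0.079), which encodes a receptor for tumour necrosis factor, Plac8 (0.084) and Gss (0.11), which encodes glutathione synthetase. Closest to Gjb1 were the keratin gene Krt23 (0.062), the matrix metalloproteinase gene Mmp14 (0.092) and Bcas1 (0.096). Closest to Gjb2 were E2f7 (0.21), a repressor of the E2F family, Aunip (0.27) and RP24-225I21.1 (0.35). Gjc1 was nearest to Osr1 (0.12), Mtor (0.13), which encodes the kinase of the same name, and Bcas3 (0.13). Gja4 was nearest to A4galt (0.084), Adap2 (0.095) and Fer1l6 (0.098), and Gja5 to Fam89a (0.13), Bambi (0.19) and Fzd9 (0.24). The measure covers only 6 libraries of 2 groups.

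Among the knockout libraries, replicate 2 held the lowest value for 6 of the 7 members, all but Gjb2. This count includes Gjb5, which was too low to judge. How often replicate 2 was lowest over all genes tested was not counted. The same library had the highest parietal and chief sums (18422 and 74333 normalized counts) and the lowest pit sum (332164) of the knockout. Each direction called for a member stayed the same without any single library, replicate 2 of the knockout included.

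**Figure D5:**
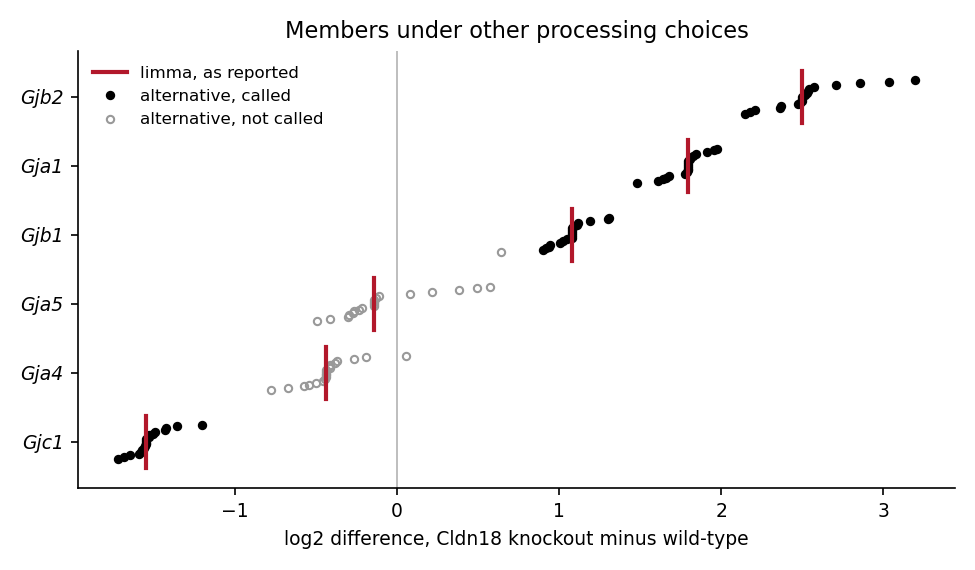
Log2 difference, Cldn18 knockout minus wild-type (horizontal axis), of the 6 members tested, as reported (red lines) and under the other processing choices (points; filled where the adjusted p was under 0.05, open where not). Gjb2, Gja1 and Gjc1 stay filled and on their side of 0 throughout, Gjb1 has a single open point at 0.64, and Gja4 and Gja5 are open throughout with points on both sides of 0.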

How the data were processed

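The submitters' processing notes name STAR, featureCounts, DESeq and the mm10 build, without roles or versions; annotation and strandedness were not stated. Normalized counts, a signal with decimals, are what the authors deposited for 38720 genes. Within each library 100% of values were whole multiples of 1 number within 0.05 reads, so reads were recovered. Their deposited comparison table, with a fold change (a ratio), p-values and group means, served as an alternative. Adgre1 was read under an older symbol.

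limma 3.58.1 (R 4.3.3; lmFit and eBayes with a mean trend) tested log2(normalized count + 1), and two-sided p-values were adjusted by Benjamini and Hochberg's method across 17432 genes; fold changes on this scale understate those of low genes. edgeR 4.0.16 called 8047 genes on the recovered reads, of which 7588 were also called by limma, and DESeq2 1.42.0 was a further alternative. The procedure was tested on simulated data. Lengths and coordinates came from GENCODE vM21 (mm10) and promoters from RefSeq. Named genes were the members, the rest of their family, called partner genes, Cldn18 and the 3 nearest patterns per member. Some genes of the family and partner lists are not reported here. The members and lists were chosen with earlier results of these data known. Deviations from the group means correlated at -0.00366, 0.0214 and -0.173 between libraries of equal number. These values showed no pairing by number, but with 3 libraries in each group they cannot exclude it.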

Additional observations from a re-analysis of the deposited data

How the results depend on the processing

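Among the 6 members tested, Gja1, Gjb2 and Gjc1 kept direction and call under all alternatives that gave them a value, at log2 differences of 1.48 to 1.97, 2.15 to 3.20 and -1.72 to -1.21. Gjb1 ranged from 0.64 to 1.31 and lost its call only without wild-type libraries 2 and 3 (0.64). Gja4 turned sign after quantile normalization (0.056), which moved the median of all genes to 0.10. Upper quartile scaling moved that median to -0.15, where Gja1, Gjb1, Gjb2 and Gjc1 kept their calls. Gja5 turned sign after quantile normalization (0.49), with array weights (0.079), without knockout replicate 2 (0.21), without wild-type replicate 2 (0.38) and without wild-type libraries 2 and 3 (0.57). Of the genes nearest to Gja5, Bambi, Fam89a and Fzd9 turned sign after quantile normalization (0.25, 0.34 and 0.19), without wild-type replicate 2 (0.32, 0.24 and 0.065) and without wild-type libraries 2 and 3 (0.52, 0.32 and 0.29), and Fam89a and Fzd9 without knockout replicate 2 (0.054 and 0.081). With 1 library left out the lowest values were -0.50 for Gja5, -0.68 for Bambi, -0.58 for Fam89a and -0.74 for Fzd9. None of these genes was called, and the cause was not tested. Bambi, Fam89a and Fzd9 were picked because their values lay close to those of Gja5 over the same libraries. Their turns of sign beside Gja5 therefore follow from that choice and are not a separate observation.

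Other connexins and pannexins called higher numbered 1, or 1 to 2 with a library left out. Partner genes called higher numbered 4, against 7 as reported, without wild-type libraries 2 and 3 and with a log2 threshold of 1, and 6 to 9 with a library left out. That threshold left 1957 genes higher over all genes. Lower genes numbered 2488 without wild-type libraries 2 and 3 and 2017 in the authors' deposited table. With the longest transcript the share of the connexin total was 13.5% in the knockout and 8.24% in wild-type for Gja1, and 83.99% and 83.96% for Gjb1. With the replicate block the members' log2 differences did not change and their calls stayed, with limma adjusted p-values of 6.42e-06 for Gja1, 0.000299 for Gjb1, 0.00249 for Gjb2 and 0.00138 for Gjc1. The samples share only a number, and the block with edgeR was chosen after seeing the data. Depth limits Gjb5 and 8 other connexins.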
